A study of Rattus norvegicus with 8 samples.

Results

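The dystrophin-associated protein complex was followed in rat thigh muscle through every array probe whose annotated symbol is one of its listed genes, Dmd, Dag1, Sgca, Sgcb, Sgcd, Sntb1 and Cav3. Of the 7 listed genes 6 had a probe, each exactly 1, so the complex was read by 6 of the 22523 probes on the array and by 6 of its 13337 named genes. Sgcb had 0 probes by symbol and 0 by Entrez gene number and is not analysed here. Total RNA came from the thigh muscle of Wistar Han rats, an outbred laboratory stock for which the labels name no genetic change. The treated group was 4 rats given compound 197 at 150 ppm in the feed over 28 days, and the control group was 4 rats on standard feed, labelled with the same 28 days. Compound 197 is known here only by that code, and the labels place it among sulfonyl isoxazolines. The series title sets the comparison within work on mitochondrial toxicity in muscle. Each rat gave 1 array, an Illumina beadchip, whose beads carry short probes for single genes. The sources used here do not give the sex, age or cage of the animals, nor the slide or scan of the arrays. P-values measure the spread between these 8 arrays.

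The complex is a chain of proteins that ties the cytoskeleton of a muscle fibre to the matrix outside it. Dystrophin, the product of Dmd, binds actin on the inside and dystroglycan at the membrane, and dystroglycan, the product of Dag1, binds laminin on the outside. The sarcoglycans, among them those encoded by Sgca, Sgcb and Sgcd, form a membrane-spanning subcomplex that stabilises this link. Syntrophins such as the product of Sntb1 are adaptors on the inner face that recruit signalling proteins, and caveolin-3, the product of Cav3, is the muscle form of the caveolae coat and can bind dystroglycan. Loss of dystrophin in humans causes Duchenne muscular dystrophy, and loss of alpha- or delta-sarcoglycan causes limb-girdle muscular dystrophies.

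The bases before the annotated transcription start are shown for Sgca and Sgcd, the members that passed the test in opposite directions, and for Cav3, which did not pass it. The sequences are from RefSeq (GRCr8), 5′ to 3′ on the strand of the gene, each 250 bases long and ending at the base before the start. Capitals mark E-boxes, the letters CANNTG, which read the same pattern on both strands and are bound by factors of the basic helix-loop-helix class, including those of the myogenic family.
Sgca (chr10:80416076-80416325, minus strand): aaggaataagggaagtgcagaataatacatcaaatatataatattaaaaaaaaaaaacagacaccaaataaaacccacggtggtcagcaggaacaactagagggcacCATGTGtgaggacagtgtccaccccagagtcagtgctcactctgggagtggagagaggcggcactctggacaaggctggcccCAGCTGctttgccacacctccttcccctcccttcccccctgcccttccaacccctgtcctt
Sgcd (chr10:32254941-32255190, minus strand): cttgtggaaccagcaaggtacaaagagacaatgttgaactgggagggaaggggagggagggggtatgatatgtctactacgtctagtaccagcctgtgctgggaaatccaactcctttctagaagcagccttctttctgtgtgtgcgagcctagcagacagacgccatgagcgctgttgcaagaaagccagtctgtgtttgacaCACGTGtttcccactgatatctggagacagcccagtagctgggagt
Cav3 (chr4:147137743-147137992, plus strand): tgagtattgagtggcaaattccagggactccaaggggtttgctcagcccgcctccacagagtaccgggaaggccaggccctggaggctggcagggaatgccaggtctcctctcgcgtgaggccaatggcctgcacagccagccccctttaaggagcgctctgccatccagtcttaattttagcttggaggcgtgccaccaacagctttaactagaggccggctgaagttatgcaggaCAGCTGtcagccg
The Sgca window held E-boxes whose first base lay at -143 and at -61 relative to the start, that of Sgcd held 1 at -46, and that of Cav3 held 1 at -13. The MCAT element, searched as CATTCC on both strands, was found in the Cav3 window at -157 (there as GGAATG, the reverse strand), and it did not overlap the E-box. The GC box, searched as GGGCGG on both strands, was in none of these 3 windows. Such matches are common, since 65.5% of all 33469 RefSeq windows of 250 bases held an E-box, 12.1% an MCAT element and 30.5% a GC box. The Sgcd window lies inside the annotated span of its own gene and that of Sgca partly so, as the annotated genes begin further upstream. Dmd had 3 windows in the table, and the 1 window of Sgcb held none of the 3 motifs. Dag1 and Sntb1 are named only.

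Of the 5 members that could be tested, Sgca rose and Sgcd fell in the muscle of rats fed compound 197, while Dmd, Dag1 and Cav3 did not pass the test. A probe counted as above background on an array at a detection p under 0.05, and the 9873 probes above it on 4 or more arrays were tested. Levels below are log2 intensities after background correction and quantile normalization, changes are compound 197 minus control, and adjusted p-values are from limma with Benjamini-Hochberg adjustment over all 9873 probes at a threshold of 0.05. The 1 member higher stands against 16.3% of all tested probes called higher, and the 1 member lower against 24.2% called lower. In either direction 40.5% of probes were called, so 2 of 5 members is near the share over the array. In 40.0% of all tested probes the groups did not overlap, which held for the same 2 of 5 members. The median change was 0.02 over the 5 tested members and -0.18 over all tested probes. In whole muscle, fewer cells of a type and less RNA per cell cannot be told apart.

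Dmd, which encodes dystrophin, read 8.07, 8.14, 8.64 and 9.18 in the controls and 8.32, 8.78, 8.73 and 8.62 with compound 197. The groups overlapped, and the treated values lay within the control range. The mean went from 8.51 ± 0.51 to 8.61 ± 0.21 (SD, n = 4 each), a change of 0.10 ± 0.24 (SE) with a limma adjusted p of 0.756. The 95% interval of the change ran from -0.44 to 0.65, so a difference of either sign up to those sizes was not resolved at this number of arrays. The gene has 4 curated transcripts in RefSeq among 20 listed, and 1 probe cannot separate them. The same limit holds for Sgca (3 curated among 7), Sgcd (2 among 8) and Dag1 (1 among 9).

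Dag1 encodes both subunits of dystroglycan, the receptor for laminin. Its probe read 12.07, 12.57, 12.15 and 12.31 in the controls and 12.25, 12.27, 12.39 and 12.27 with compound 197. The treated values fell inside the control range and were closer together. The change was 0.02 ± 0.12 (SE, n = 4 each), with a 95% interval from -0.26 to 0.30 and a limma adjusted p of 0.916.

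Sgca encodes alpha-sarcoglycan, the sarcoglycan largely restricted to striated muscle. Its probe read 8.59, 8.47, 8.26 and 8.64 in the controls and 9.52, 9.76, 9.64 and 9.41 with compound 197. Every treated array was above every control array. The mean rose from 8.49 ± 0.17 to 9.58 ± 0.15 (SD, n = 4 each), a change of 1.09 ± 0.12 (SE) or 2.13-fold, with a limma adjusted p of 0.000144. Before normalization the groups did not overlap either, with intensities of 473, 423, 313 and 456 in the controls and 881, 898, 898 and 859 in the treated muscle. Among all tested probes the change of Sgca lay at percentile 91.6. It passed the test in all 21 alternative settings, with changes from 0.96 to 1.67.

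Sgcd encodes delta-sarcoglycan, a partner of alpha-sarcoglycan in the same subcomplex. The control arrays read 9.03, 9.56, 9.28 and 9.73, and the compound 197 arrays 8.92, 8.80, 8.93 and 8.64. Every treated array was below every control array, although treated replicates 1 and 3 lay close under control replicate 1. The mean fell from 9.40 ± 0.31 to 8.82 ± 0.14 (SD, n = 4 each), a change of -0.58 ± 0.16 (SE), 1.49-fold lower, with a limma adjusted p of 0.0189. Before normalization the groups overlapped, with intensities of 622, 833, 556 and 866 in the controls and 616, 474, 586 and 535 with compound 197. The call depended on the scaling: the change was -0.39 with cyclic loess (adjusted p = 0.111) and -0.01 with median scaling (adjusted p = 0.984). It also missed the threshold without compound 197 replicate 4 (adjusted p = 0.0546).

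Sntb1 encodes beta-1-syntrophin. Its probe was above background on 0 of 4 control arrays and on 1 of 4 compound 197 arrays, so it was not tested, and no fold or direction is given. Detection p-values were 0.537, 0.675, 0.724 and 0.684 in the controls and 0.0812, 0.202, 0.525 and 0.0206 with compound 197. The non-normalized intensities were 87.8, 81.1, 79.6 and 82.9 in the controls, and 97.7, 88.9, 83.5 and 106 in the treated muscle. The single array above background was compound 197 replicate 4, the array with the most probes above background.

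Cav3 encodes caveolin-3. Its probe read 10.14, 10.20, 9.61 and 9.87 in the controls and 9.99, 10.06, 9.84 and 10.02 with compound 197. The treated values sat within the control range. The change was 0.02 ± 0.14 (SE, n = 4 each), the 95% interval ran from -0.30 to 0.34 and the limma adjusted p was 0.925.

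**Figure D1:**
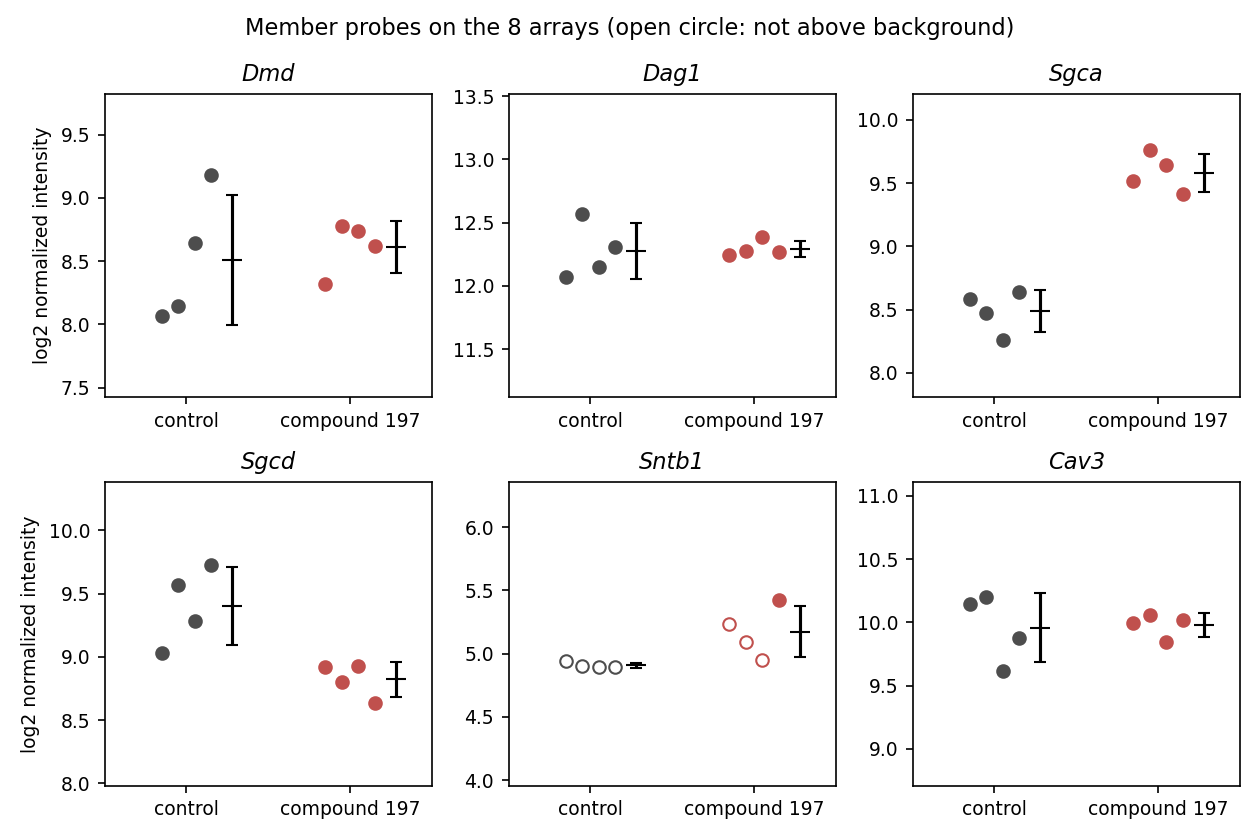
Log2 normalized intensity (vertical axis) of the 6 member probes on the 4 control and 4 compound 197 arrays; filled points are arrays on which the probe was above background, open points those on which it was not, and bars are the mean and SD. For Sgca the 4 treated arrays lie at 9.41 to 9.76 above controls at 8.26 to 8.64, for Sgcd they lie below the controls, and for Dmd, Dag1 and Cav3 the groups overlap.

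The split between the members was then examined under other ways of putting the arrays on one scale, since these moved the centre of all changes. Median scaling matched the arrays at the median level of all 22523 probes. Only 8310 to 10498 probes per array were above background, so that level was set by probes not above background. The median change of all 9873 probes was -0.18 with quantile normalization, -0.13 in the authors' deposited normalized values, -0.01 with cyclic loess and 0.31 with median scaling. Sgca was above that median under each of these, with changes of 1.09, 0.96, 1.29 and 1.67. Sgcd was below it under each, at -0.58, -0.51, -0.39 and -0.01, and it passed the test with the first and second of them. Dmd, Dag1 and Cav3 moved with the scale, to 0.67, 0.65 and 0.57 with median scaling. Dmd then passed the test (adjusted p = 0.0239), and Dag1 and Cav3 did not (adjusted p = 0.0924 and 0.197). With median scaling 23.2% of all tested probes were called higher and 1.91% lower, against 2 and 0 of the 5 members. With cyclic loess the shares were 19.4% and 8.02%, against 1 and 0 members.

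**Figure D2:**
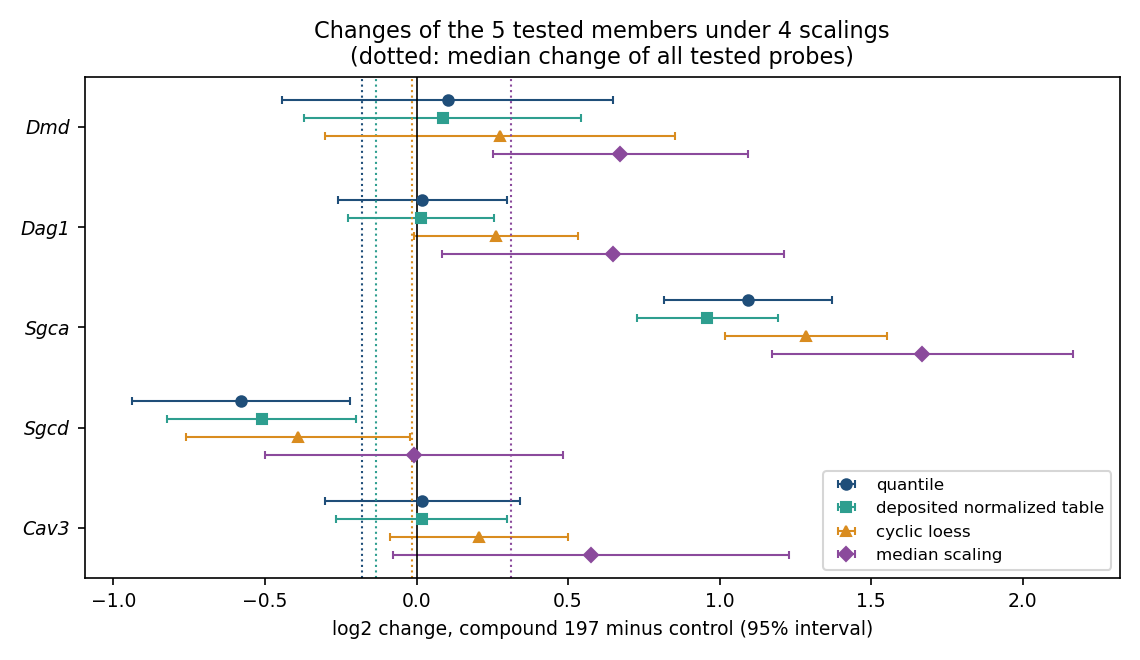
Log2 change, compound 197 minus control, of the 5 tested members under 4 scalings (horizontal axis, points with 95% intervals), with dotted lines at the median change of all tested probes under each. Sgca stays between 0.96 and 1.67, Sgcd moves from -0.58 to -0.01, and the other 3 members move from near 0 with quantile normalization to 0.57 to 0.67 with median scaling.

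A difference between members on the same array does not depend on a factor applied to the whole array, and it was compared between the groups for all 10 pairs of tested members. Only the change of such a difference is read here, because the levels of different probes cannot be set against each other. The difference Sgca minus Sgcd went from -0.91 ± 0.31 in the controls to 0.76 ± 0.15 with compound 197 (SD, n = 4 each), a change of 1.67. Every treated array was above every control array. With quantile normalization that was fixed in advance, since Sgca lay above all controls and Sgcd below them on every treated array. The lack of overlap and the exact p below therefore add no support to those calls. The change was 1.68 with median scaling and 1.68 with cyclic loess. It was 1.57 with a background offset of 50, and 1.47 both without background correction and in the authors' deposited normalized values. The exact permutation p was 0.0286 (two-sided), the smallest that 4 against 4 arrays can give over 70 groupings, and 0.0571 after adjustment over the 10 pairs. No pair of the 10 passed after adjustment, and with 5 pairs at the smallest p the adjusted value could go no lower.

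The other pairs with Sgca shifted in its favour by similar amounts, without passing after adjustment. Dmd, Dag1 and Cav3 themselves changed by 0.10, 0.02 and 0.02. Their pairs with Sgca thus largely repeat the change of that 1 probe and are not separate support. Dag1 minus Sgca changed by -1.08, Sgca minus Cav3 by 1.07 and Dmd minus Sgca by -0.99. In each of these 3 pairs the groups did not overlap and the exact permutation p was 0.0286 (adjusted 0.0571). Dag1 minus Sgcd changed by 0.60 at the same p, again with no overlap. For Sgcd against Dmd and Cav3 the groups overlapped: Dmd minus Sgcd changed by 0.68 (exact p = 0.0571, adjusted 0.0952) and Sgcd minus Cav3 by -0.60 (exact p = 0.0857, adjusted 0.122). Among Dmd, Dag1 and Cav3 the differences changed by 0.08 for Dmd minus Dag1 and for Dmd minus Cav3 (exact p = 0.886 for each), and by under 0.01 in size for Dag1 minus Cav3. Without control replicate 1, 6 of the 10 pairs passed after adjustment, all at an adjusted exact p of 0.0476. Their unadjusted exact p was again 0.0286, and the adjusted value was lower only because more pairs shared it.

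**Figure D3:**
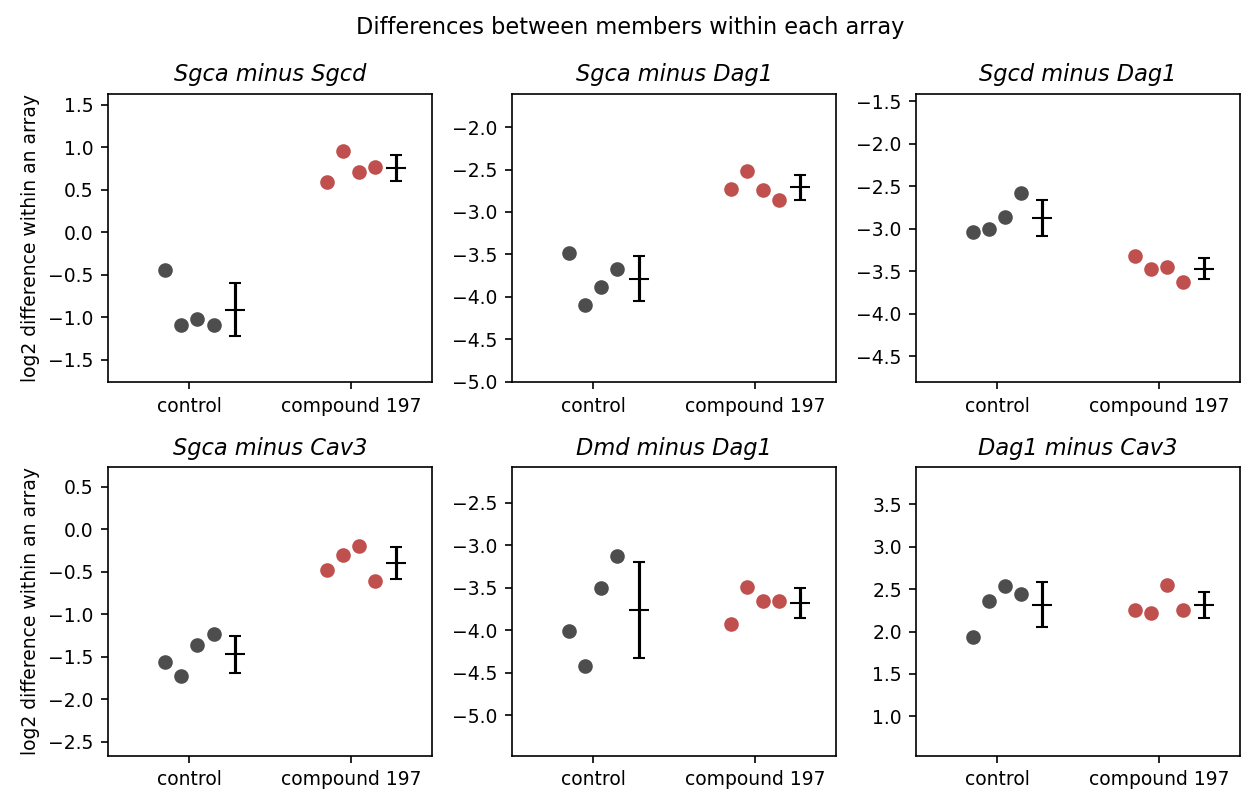
Difference in log2 level of paired member probes within an array (vertical axis) for 6 of the 10 pairs, by group; points are arrays and bars the mean and SD, 4 arrays per group. Sgca minus Sgcd moves from -0.91 to 0.76 with no overlap, while Dmd minus Dag1 and Dag1 minus Cav3 overlap between the groups.

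The variation of the members within a group was described by correlation. After each group mean was taken off, Pearson's r over the 8 arrays was highest for Dag1 with Sgcd (0.69) and Dmd with Sgcd (0.51), and lowest for Dmd with Cav3 (-0.59). Sgca and Sgcd gave 0.29. These values describe 8 arrays that share scaling and labelling, and they carry no test. By the same measure the genes nearest to Sgca were Zfp518a (r = 0.980), a zinc finger gene whose control levels were not above background, so that this r rests partly on background, and Zbtb17 (r = 0.970). The nearest to Sgcd were Ppm1l (r = 0.994), a protein phosphatase of the PP2C class, and Napg (r = 0.986), neither of which passed the test of change. Dmd was closest to Adrb3 (r = 0.984) and Bmp4 (r = 0.982). For Dag1 they were Rpa3 (r = 0.986) and Usp47 (r = 0.985), and for Cav3 Fmo2 (r = 0.982) and Dhx8 (r = 0.981). Each is the highest or second highest of all tested named probes over 8 arrays, and such a value says nothing of shared control.

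The remaining subunits of the complex were largely out of reach of the array. Of 12 listed, 7 had a probe, and those for Dtnb, Nos1, Sgcz, Sntb2 and Sntg2 were above background on no array, while Utrn was above it on 0 control and 2 compound 197 arrays. Sspn, which encodes sarcospan, the tetraspanin-like partner of the sarcoglycans, was the 1 probe tested. It read 11.76, 12.04, 11.89 and 12.08 in the controls and 11.29, 11.09, 11.14 and 11.13 with compound 197. The groups did not overlap, and the change was -0.78 ± 0.11 (SE, limma adjusted p = 0.000525). It stayed below 0 with median scaling, at -0.15, but did not pass there, and it passed with cyclic loess.

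Around the complex, 41 probes of 5 lists were tested, of which 2 rose and 18 fell, against 16.3% and 24.2% of all tested probes, with a median change of -0.31 against -0.18. Limited to probes above background on all 8 arrays, the lists gave 1 higher and 18 lower of 36. Of all 7405 probes under that filter, 905 were called higher and 2290 lower. The median change there was -0.39 for the lists and -0.25 for all probes. With median scaling the 41 gave 7 higher and 1 lower, where 23.2% and 1.91% of all probes were called, and 10 of the 18 falls lay above 0. With cyclic loess they gave 4 higher and 6 lower, against 19.4% and 8.02%, and all 18 stayed below 0. The falls below are therefore falls relative to a scale on which the whole array is matched in distribution.

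The laminins and other matrix ligands, the outer end of the chain, had 4 tested probes, of which 0 rose and 3 fell, against 24.2% of all tested probes called lower, with a median of -0.51. Lamc1, the laminin gamma-1 chain, read 8.45, 8.66, 8.41 and 8.31 in the controls and 7.28, 7.54, 7.81 and 7.85 with compound 197. All treated arrays were below all controls, and the change was -0.84 ± 0.15 (SE, limma adjusted p = 0.00234). Agrn, the proteoglycan agrin that binds dystroglycan, changed by -0.52 ± 0.12 (adjusted p = 0.00974) and Lamb2, the laminin beta-2 chain, by -0.50 ± 0.16 (adjusted p = 0.0327). Bgn, biglycan, changed by 0.13 and did not pass. With median scaling Agrn and Lamb2 lay at 0.06 and 0.07 and Lamc1 at -0.23, none of them passing. The call of Lamb2 was lost on leaving out any 1 of 5 arrays, controls 1, 2 and 3 and treated replicates 1 and 2, with adjusted p up to 0.0831.

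The enzymes that put the laminin-binding sugar on dystroglycan had 8 tested probes, of which 0 rose and 3 fell, against 16.3% and 24.2% of all tested probes, with a median of -0.07. Rxylt1, a xylosyltransferase of that pathway, changed by -0.74 ± 0.17 (SE, limma adjusted p = 0.00899). Pomgnt1, which extends O-mannose, changed by -0.31 ± 0.091 (adjusted p = 0.0237). Dolk, the dolichol kinase that supplies the mannose donor, changed by -0.50 ± 0.16 (adjusted p = 0.0355). Pomgnt1 and Dolk were each lost in 4 of the 8 fits that leave out an array: controls 3 and 4 and treated replicates 1 and 3 for Pomgnt1, controls 2 and 4 and treated replicates 1 and 4 for Dolk. With median scaling Rxylt1 lay at -0.15, Pomgnt1 at 0.26 and Dolk at 0.08, none of them passing.

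The costamere and the integrin link, which run beside the complex at the fibre membrane, had 14 tested probes, of which 1 rose and 8 fell, against 16.3% and 24.2% of all tested probes, with a median of -0.49. With median scaling the list gave 3 higher and 1 lower, with a median of 0.09. Parva, the actin-binding partner of integrin-linked kinase, was above background on all 4 treated arrays and on no control array, so it entered the test only through the group where it is high. Its level was at least 1.54-fold higher with compound 197 (limma adjusted p = 0.000798), and that call is not support for the list. Zyx, a focal adhesion protein, read 6.47, 6.59, 7.95 and 7.38 in the controls and 5.54, 5.77, 5.98 and 5.50 with compound 197. It changed by -1.40 ± 0.31 (adjusted p = 0.00722), and by -0.90 with median scaling, where it was the 1 fall of the 18 still called. Its treated levels lay near background, with detection p from 0.00485 to 0.0158. The other probe for Zyx was above background on no array. Itgb1, the integrin beta-1 chain, changed by -0.56 ± 0.12 (adjusted p = 0.00744), and by 0.04 with median scaling. Ilk, integrin-linked kinase, was read by 3 probes that disagreed: 2 were called lower, with changes of -0.50 ± 0.11 (adjusted p = 0.00667) and -0.48, and the third changed by 0.09 and did not pass.

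The caveolae and membrane repair genes had 14 tested probes, of which 1 rose and 3 fell, with a median of -0.16. Both counts are near or under the 16.3% and 24.2% called over all tested probes. Capn3, the muscle calpain, fell from 11.68 ± 0.11 to 11.10 ± 0.040 (SD, n = 4 each), a change of -0.58 ± 0.093 (SE, limma adjusted p = 0.00148). Cav1, the caveolin of endothelial, fat and other cells and a relative of Cav3, read 7.01, 6.82, 7.02 and 7.41 in the controls and 8.26, 7.94, 7.83 and 7.74 with compound 197. That probe rose by 0.88 ± 0.16 (adjusted p = 0.00278), and a second probe for Cav1 changed by 0.26 and did not pass. Ehd2, a membrane-bending ATPase of caveolae, changed by -0.31 ± 0.10 (adjusted p = 0.0363), and Anxa5, an annexin, by -0.71 ± 0.25 (adjusted p = 0.0465). Ehd2 and Anxa5 were each lost in 6 of the 8 fits that leave out an array and kept only without control replicate 3 or compound 197 replicate 3 for Ehd2, and without control replicate 4 or compound 197 replicate 4 for Anxa5. With median scaling Capn3 lay at 0.03 and Ehd2 at 0.28. Dysf, which encodes dysferlin, was above background on no array.

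**Figure D4:**
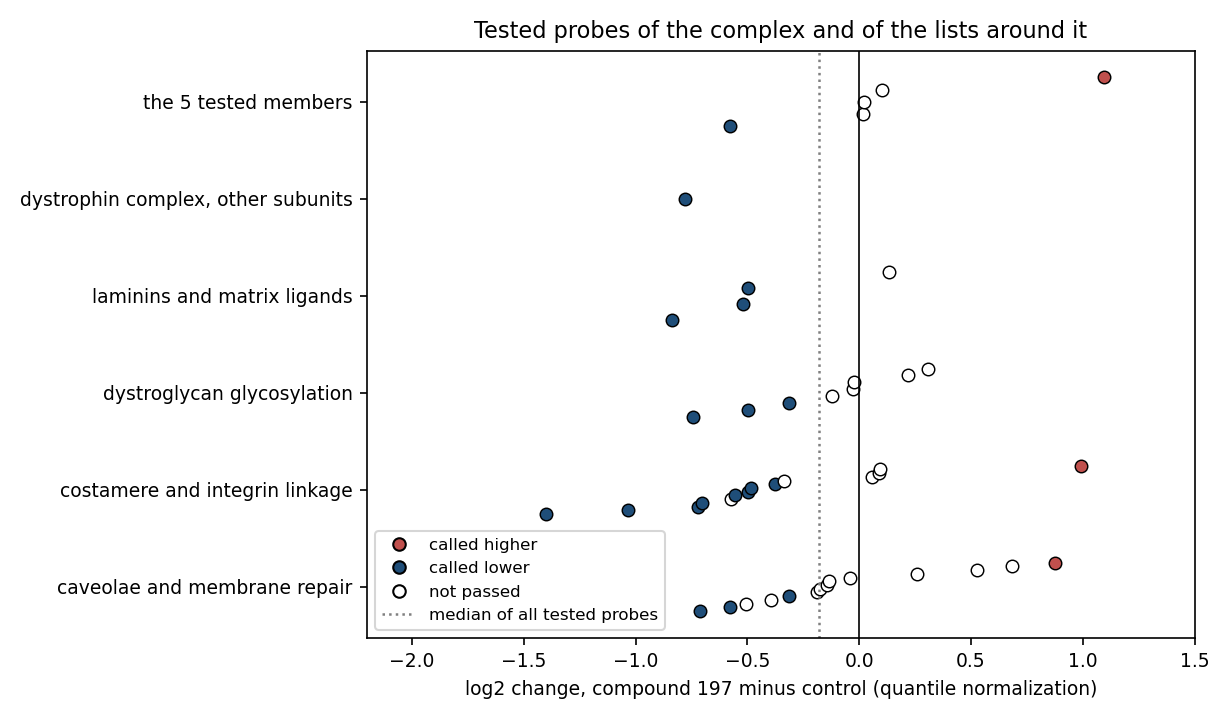
Log2 change, compound 197 minus control with quantile normalization (horizontal axis), of each tested probe of the complex and of the 5 lists around it; red points were called higher, blue lower and open points did not pass, and the dotted line is the median of all tested probes at -0.18. Most called probes of the lists lie to the left, with Sgca, Parva and Cav1 called to the right.

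Markers of the cells in the sample were read beside these results. Over all tested probes 16.3% were called higher and 24.2% lower, and the count of each marker list stands against these shares. Of 10 tested markers of the muscle fibre 3 rose and 0 fell. Myh4 and Myh2, the fast myosins IIb and IIa, changed by 3.63 ± 0.26 and 4.36 ± 0.33 (SE), while Acta1, Ckm, Tnnt3, Actn3 and Pygm did not pass. These 5 probes were among the 45 brightest on every array, and Acta1 was the brightest on all 4 control arrays, where quantile normalization sets its level (15.77, SD 0), so a change in them may not be measurable here. The summed level of the fibre list, in which these bright probes weigh most, was 235690 to 275540 in the controls and 283330 to 322790 with compound 197. The sum also holds Tnni2, the third marker called, which went from a mean of 13.74 to 15.22 (limma adjusted p = 1.46e-05). It holds Mb as well, which changed by 0.88 and did not pass. The higher sum is therefore not a measure of the 5 bright probes alone. Myh7, the slow myosin, varied widely among rats, with an SD of 3.99 in the controls and 2.55 with compound 197. Of 3 tested adipocyte markers 1 rose, Fabp4 by 0.88 ± 0.21. Adipoq changed by 0.78 and Cidec by -0.31, and neither passed. The summed level of the list was 1533.1 to 2518.4 in the controls and 2793.5 to 4511.5 with compound 197, with Lep above background on no array. Most of that sum is Fabp4, whose control mean was 10.87 in log2, against 5.53 for Adipoq and 6.35 for Cidec. The higher sum therefore restates the call of Fabp4 and is not a measure of the list. The fibroblast, endothelial, macrophage and leukocyte, Schwann cell, satellite cell and cardiac lists held 7, 4, 3, 2, 4 and 3 tested probes, none called, with Cdh5, Itgam, Sox10, Pax7, Ncam1 and Actc1 above background on no array. Of 3 tested smooth muscle markers 1 was called lower, Smtn with a change of -0.44, while Tagln and Des, which skeletal fibres also express, did not pass. The part of these marker changes in the changes of the members was not tested.

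The arrays themselves differed between the groups. Control arrays had 8310 to 9507 probes above background and treated arrays 9743 to 10498 (8988 ± 498 and 10109 ± 328, SD, n = 4 each, exact permutation p = 0.0286). The lowest intensity on an array was 59.3 to 61.6 in the controls and 51.1 to 55.5 with compound 197. This floor bears on dim probes such as those of Sntb1, Utrn and Parva, and on the treated levels of Zyx. Apart from Sntb1, the member probes were above background on all 8 arrays. Across tested probes, arrays correlated at r = 0.960 to 0.987 within a group and at 0.890 to 0.931 between groups.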

How the data were processed

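Total RNA of 8 rat thigh muscles was measured on 1-colour Illumina beadchips. The authors deposited intensity values before and after normalization, each with detection p-values, per the file headers. The sources used here do not say how probes were scanned, detected and normalized. All columns of the normalized table hold the same sorted values, as quantile normalization gives, and the series matrix holds the same values. The non-normalized values were passed through limma's neqc (background from the detection p-values, offset 16, quantile normalization, log2). Probes with detection p under 0.05 on at least 4 of 8 arrays were fitted with lmFit and eBayes (limma 3.58.1, R 4.3.3), with Benjamini-Hochberg adjustment over 9873 probes and a threshold of 0.05. A probe that no array of a group placed above background has only a bound there: per array, the higher of its own level and the lowest level among probes above background. Single values used exact two-sided permutation tests.

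Symbols came from the platform annotation (13793 probes with 1 symbol, 0 with several, 8730 not listed), updated through Entrez numbers for 13752 with a RefSeq GRCr8 table. The probes were designed on records that RefSeq still lists for all 6 member genes. The rule for named genes took every member probe, up to 4 passing probes of each list with the smallest adjusted p, and the 2 nearest genes per member by r. Lims1, Sync, Pxn and Flnc also fell and are in the counts. Members, lists and tests were chosen with earlier results of these data known. The number of arrays limits the precision. The labels do not tie a control rat to the treated rat of the same number. Same-numbered arrays deviated from their group means with r from -0.13 to -0.04, and differently numbered arrays with r from -0.30 to 0.37. Such values cannot exclude a pairing of the rats. Figures were drawn with matplotlib 3.10.9.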

Additional observations from a re-analysis of the deposited data

How the results depend on the processing

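The rise of Sgca passed in all 21 alternatives, and the change of Sgcd was below 0 in all 21 and passed in 16. Members called higher went from 1 to 2 with median scaling. Members called lower went from 1 to 0 with median scaling, cyclic loess, changes relative to the median change, a replicate block and adjusted p under 0.01, and ranged from 0 to 1 on leaving out 1 array, 0 without compound 197 replicate 4. The probes of the 5 lists called higher, 2 at first, were 7 with median scaling, 4 with cyclic loess, 5 relative to the median change, 1 with detection on all 8 arrays and 1 with 1 probe per gene. Those called lower, 18 at first, were 1, 6 and 7 under the first 3 of these and 8 at adjusted p under 0.01. The calls over the array moved as well. Of all 9873 probes, 2386 were called lower at first, 189 with median scaling, 792 with cyclic loess and 842 relative to the median change. Those called higher were 1613, 2288, 1915 and 1943 in the same order. With 1 probe per gene 931 of 7162 were called higher, and with detection on all 8 arrays 905 of 7405. At adjusted p under 0.01 the share over all probes is not given here.

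On leaving out 1 array the change of Dmd ranged from -0.0439 (control replicate 1) to 0.33, Dag1 from -0.0491 (control replicate 1) to 0.12 and Cav3 from -0.10 (control replicate 3) to 0.10. The difference Dmd minus Dag1 ranged from -0.14 to 0.29, Dmd minus Cav3 from -0.12 to 0.34 and Dag1 minus Cav3 from -0.13 to 0.0718. Dag1 minus Cav3 was also above 0 at 0.00115 without background correction, 0.000161 with an offset of 50, 0.0733 with median scaling and 0.0567 with cyclic loess. None of these passed. Pairs that differed after adjustment numbered 0 to 6, 6 only without control replicate 1. With the replicate block, the lists gave 12 lower, where 1750 of all 9873 probes were called lower. Under that block Sgcd kept -0.58 at a limma adjusted p of 0.0586 and Sgca passed. For pairs of members the block allows no p under 0.125, so it says nothing of them. A slide block was not run, since no slide is named. The same 9873 probes were tested when an array was left out. The cause of these shifts was not tested.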
